A study of Mus musculus with 28 samples.

Results

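The genes examined here are the 40 genes of endoplasmic reticulum (ER) stress and the integrated stress response, found by symbol among the 45513 gene rows of the count table. They comprise 15 ER chaperones and folding enzymes, 7 genes of ER-associated degradation, 6 sensors and regulators, and 12 targets of the transcription factor ATF4. RNA was sequenced from ventricular myocardium of 28 adult male C57BL/6 mice, 1 library per mouse. Chronic kidney disease (CKD) had been induced by 5/6 nephrectomy at 6 weeks of age, and control mice had a sham operation. On day 7 the mice were gavaged with a single dose of Oxalobacter formigenes (Oxf), an oxalate-degrading gut bacterium, or with culture medium alone (vehicle). The diet of all 4 groups contained 0.5% calcium and 1% hydroxyproline, from which the body makes oxalate. There were 4 groups: sham-vehicle (n = 10), CKD-vehicle (n = 6), sham-Oxf (n = 5) and CKD-Oxf (n = 7). The design names 10 mice per group, and the remaining mice were not analysed here.

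Proteins bound for secretion or for membranes fold in the ER, helped by chaperones such as the product of Hspa5 (BiP). When unfolded proteins accumulate, the sensors encoded by Ern1 (IRE1), Atf6 and Eif2ak3 (PERK) start the unfolded protein response. IRE1 splices Xbp1 mRNA, and cleaved ATF6 and spliced XBP1 raise chaperone and degradation genes through the ER stress response element (ERSE) of their promoters. PERK is also a kinase of the integrated stress response: it phosphorylates eIF2, which slows translation in general but favours that of ATF4. ATF4 then raises genes of amino acid synthesis, redox balance and cell death through C/EBP-ATF composite sites. Cardiomyocytes make many membrane proteins, and both branches are studied in the stressed heart. Because Xbp1 splicing and eIF2 phosphorylation are not seen in gene counts, the values below are levels of the mRNAs only. In bulk tissue, fewer cells of a type and less RNA per cell cannot be told apart.

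Promoter sequences are shown for 4 members because they hold the sites that the background above names for each branch. Windows from 250 bases before to 50 after the RefSeq transcript start (build GRCm38.p6) were found for 35 of the 40 members. The ERSE was searched as CCAAT and CCACG with 9 bases of any kind between them, its shorter form ERSE-II as ATTGG and CCACG with 1 base between them, and the ATF4 composite site as TGATGNAA, each on both strands. ERSE and ERSE-II share the letters CCACG, and no gene of the list carried both. The 250 bases before the start are printed 5′ to 3′ on the gene's strand, with the matches in capitals, the reverse complement where the match lies on the other strand. Hspa5 (chr2:34771840-34772089, plus strand) has an ERSE match, Hsp90b1 (chr10:86705445-86705694, minus strand) has 2, Herpud1 (chr8:94386179-94386428, plus strand) has an ERSE-II and a composite match, and Chac1 (chr2:119350992-119351241, plus strand) has a composite match.
Hspa5: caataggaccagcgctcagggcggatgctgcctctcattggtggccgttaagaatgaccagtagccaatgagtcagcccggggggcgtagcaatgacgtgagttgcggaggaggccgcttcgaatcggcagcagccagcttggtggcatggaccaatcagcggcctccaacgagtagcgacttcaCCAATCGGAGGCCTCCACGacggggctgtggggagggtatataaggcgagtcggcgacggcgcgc
Hsp90b1: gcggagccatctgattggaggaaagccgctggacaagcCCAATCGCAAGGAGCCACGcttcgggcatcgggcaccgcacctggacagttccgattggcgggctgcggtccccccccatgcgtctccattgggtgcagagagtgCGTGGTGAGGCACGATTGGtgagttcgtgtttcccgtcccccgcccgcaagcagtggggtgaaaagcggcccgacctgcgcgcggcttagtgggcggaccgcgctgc
Herpud1: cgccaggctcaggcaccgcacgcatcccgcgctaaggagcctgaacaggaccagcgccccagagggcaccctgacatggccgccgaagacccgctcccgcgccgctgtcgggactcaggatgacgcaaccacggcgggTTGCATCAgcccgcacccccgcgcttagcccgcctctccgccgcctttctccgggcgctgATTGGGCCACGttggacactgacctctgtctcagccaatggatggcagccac
Chac1: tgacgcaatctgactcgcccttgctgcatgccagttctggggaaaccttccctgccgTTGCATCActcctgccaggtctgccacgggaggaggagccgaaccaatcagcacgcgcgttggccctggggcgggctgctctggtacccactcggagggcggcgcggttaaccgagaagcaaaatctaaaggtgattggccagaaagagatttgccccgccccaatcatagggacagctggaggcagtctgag

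The ERSE letters were found in 7 of 13 chaperone genes with a window, namely Calr, Canx, Creld2, Dnajc3, Hsp90b1, Hspa5 and Pdia6, and in 0 of 12 ATF4 targets. Of the degradation genes, Derl3 and Syvn1 carried them. Over all 27025 genes with such a window, 37 had a match (0.137%). ERSE-II was found in Herpud1 and Dnajb11 and in 12 genes overall (0.044%). The composite site was found in Asns, Chac1, Fgf21 and Trib3, which are 4 of 12 ATF4 targets (33.3%), in Herpud1, and in 4.51% of all genes. A match describes the letters of the window and does not show binding. The ERSE sites of the other chaperones are given 5′ to 3′ on the strand of the match, with the fixed letters at either end.
Calr: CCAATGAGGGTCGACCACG
Canx: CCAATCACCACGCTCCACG
Creld2: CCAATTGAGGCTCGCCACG
Dnajc3: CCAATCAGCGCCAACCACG
Pdia6: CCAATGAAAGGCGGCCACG

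Library totals lay between 19798965 and 65378162 counts. Sham-Oxf replicate 1 (mouse 921) stood apart, with the lowest total and counts for only 15879 genes, where each of the other 27 libraries had counts for 27128 genes or more. The RNA of the signal recognition particle, 7SL, which guides secretory proteins to the ER membrane, took a variable share of all counts. That share was 9.78 ± 5.24% in sham-vehicle (SD, n = 10), 13.6 ± 6.80% in CKD-vehicle (n = 6), 4.14 ± 3.52% in sham-Oxf (n = 5; 2.59 ± 0.80% without mouse 921, itself at 10.3%) and 8.81 ± 6.26% in CKD-Oxf (n = 7). CKD-Oxf replicate 4 (mouse 934) had the highest share of its group, 20.6%, and without it the CKD-Oxf share was 6.83 ± 3.78% (n = 6). Cardiomyocyte markers were high in every group, at 17020 to 44580 CPM (a gene's counts scaled to a common library total) summed over 8 genes, and none was at 0 in any library. Dbp, Tef, Hlf, Per1, Per2, Per3, Nr1d1, Nr1d2, Ciart and Bhlhe41 form the first clock list, and Arntl, Npas2, Clock, Nfil3 and Cry1 the second. The clock score, first list minus second (log2 scale, mean ± SD), was 0 ± 1.02 for sham-vehicle and 1.59 ± 0.44 for sham-Oxf. For CKD-vehicle it was -1.44 ± 0.99 and for CKD-Oxf 1.00 ± 0.52. Mouse numbers run in blocks by group, so any order of handling cannot be told apart from the groups.

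Members differed widely in abundance per length of transcript, and each of the lists of chaperones and ATF4 targets held both high and low genes. Levels here are medians over the 28 libraries in CPM per kilobase (kb) of exon. Hspa5 led with 36.95 CPM per kb, followed by Calr, which holds glycoproteins in the folding cycle (33.7), Herpud1 of the degradation machinery (31.7) and Hsp90b1, the ER member of the HSP90 family (28.2). Ddit4, an inhibitor of mTORC1 signalling, was the highest ATF4 target at 18.3 CPM per kb, close to Pdia3 (16.3), a disulfide isomerase. The regulators Xbp1 and Atf4 were at 11.25 and 11.0 CPM per kb. The low end included the ATF4 targets Trib3 (1.33), Chac1 (1.14), Asns (0.601), Psat1 (0.446) and Gdf15 (0.212 CPM per kb). Ranges of neighbouring genes in this order overlapped widely, as the plot of levels shows.

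**Figure D1:**
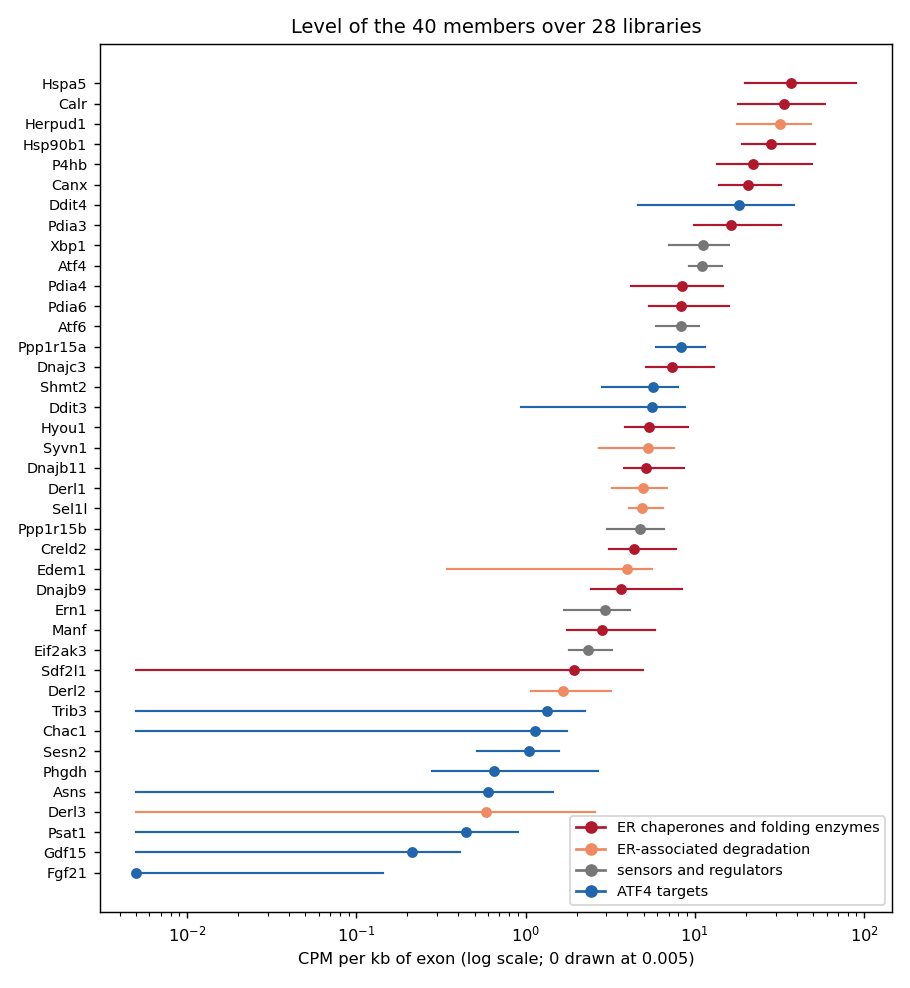
Level of each member in CPM per kb of exon on a log axis, as the median (point) and the range (line) over the 28 libraries, coloured by gene list; a value of 0 is drawn at 0.005. Hspa5, Calr, Herpud1 and Hsp90b1 are at the top and Gdf15 and Fgf21 at the bottom.

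The transcription factors at the head of both branches had overlapping levels in all groups. Xbp1 lay between 30.2 and 51.6 CPM in sham-vehicle (median 36.0), between 36.3 and 48.3 CPM in CKD-vehicle (median 40.5) and between 26.4 and 43.5 CPM in CKD-Oxf (median 32.7). The 5 sham-Oxf libraries held 22.8, 26.7, 27.0, 37.9 and 40.7 CPM of Xbp1. Atf4 had medians of 25.7 CPM in sham-vehicle, 27.97 CPM in CKD-vehicle and 25.5 CPM in CKD-Oxf, and values of 22.1, 23.3, 25.4, 25.6 and 30.5 CPM in sham-Oxf. Every group overlapped every other for both genes. Of the sensors, Ern1 lay between 13.8 and 33.9 CPM, Atf6 between 54.2 and 98.3 CPM and Eif2ak3 between 10.9 and 19.4 CPM over all libraries, with overlapping groups.

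Among the ATF4 targets, levels spread widely within groups. Ddit4 lay between 10.3 and 60.7 CPM in sham-vehicle (median 27.8), between 17.4 and 51.7 CPM in CKD-vehicle (median 41.9) and between 8.08 and 67.6 CPM in CKD-Oxf (median 49.7). In sham-Oxf it was at 13.1, 19.3, 20.8, 35.8 and 36.4 CPM, inside the sham-vehicle range. Ddit3, which encodes the cell death factor CHOP, had medians of 9.598 CPM in sham-vehicle, 8.49 CPM in CKD-vehicle and 10.7 CPM in CKD-Oxf. Trib3 had medians of 2.84, 2.33 and 3.67 CPM in the same 3 groups, Asns of 1.72, 1.598 and 1.51 CPM, and Gdf15, a secreted stress cytokine, of 0.433, 0.373 and 0.371 CPM. Chac1 lay between 1.38 and 2.89 CPM in these 3 groups. No group of any of these genes stood clear of another.

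The degradation genes also overlapped between groups. Herpud1 lay between 41.6 and 113 CPM, Sel1l, the adaptor of the ubiquitin ligase complex, between 34.9 and 55.2 CPM, and Syvn1 between 13.3 and 36.4 CPM over all libraries. Edem1, a mannosidase-like degradation factor, lay between 21.3 and 36.1 CPM apart from 2.23 CPM in mouse 921. The lower chaperones were Sdf2l1 (0 to 5.49 CPM), Creld2 (4.24 to 10.6 CPM), Manf (6.19 to 20.4 CPM) and Dnajb9 (6.17 to 21.5 CPM).

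Fgf21, which encodes a stress hormone, was the only member that failed the filter on low counts. It was at 0 in 23 libraries, and its highest count was 5. A count of 0 allows up to 3 counts, or 0.0554 to 0.142 CPM depending on the library (counting error only), so Fgf21 mRNA was at or near this limit throughout. The other 39 members were tested with edgeR over 24273 genes.

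Mouse 921 was at 0 for Sdf2l1, Trib3, Chac1, Asns, Psat1, Fgf21, Gdf15 and Derl3, 8 members in all. For this library a count of 0 allows up to 0.142 CPM. The other sham-Oxf libraries held 2.12 to 3.19 CPM of Trib3 and 1.70 to 2.86 CPM of Chac1, well above that limit. Among its chaperones, Sdf2l1 was at 0, while its Hspa5 level, 199 CPM, was the highest of its group.

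The question that the design puts to these genes is whether kidney disease and colonization moved the folding branch and the ATF4 branch in the heart. Among mice that received vehicle, nephrectomy changed no member at an adjusted p below 0.05 (edgeR quasi-likelihood test, Benjamini-Hochberg over all genes tested), where 0.00824% of all genes passed. At an unadjusted p below 0.05, 2 of 39 members passed, Hspa5 and Sesn2, against 4.46% of all genes. DESeq2 also gave 0 of 39. The chaperones had positive estimates in 14 of 15 cases, with a median log2 difference of 0.13, against -0.03 over all genes. The ATF4 targets had negative estimates in 9 of 11 cases, with a median of -0.18.

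Hspa5 ran from 86.9 to 373 CPM in sham-vehicle (median 154) and from 152 to 381 CPM in CKD-vehicle (median 267). The ranges overlapped, and 5 of 6 CKD-vehicle libraries lay above the sham-vehicle median. The log2 difference was 0.57 ± 0.27 (SE), with an edgeR adjusted p of 0.955. Sesn2, a leucine sensor and ATF4 target, had a median of 3.69 CPM in sham-vehicle (highest 5.08) and of 2.82 CPM in CKD-vehicle (lowest 2.18, highest 3.63). All 6 CKD-vehicle libraries were below the sham-vehicle median, yet the difference of -0.41 ± 0.19 also had an edgeR adjusted p of 0.955. The next smallest p-values belonged to Hyou1 (0.25 ± 0.15), an exchange factor of BiP, P4hb (0.35 ± 0.21), a disulfide isomerase, Ppp1r15b (-0.18 ± 0.11), a constitutive eIF2 phosphatase subunit, and Atf6 (0.19 ± 0.12). None of these passed. With the clock score as a covariate the direction of P4hb turned (-0.057 ± 0.25), Hyou1 was at 0.03 ± 0.18 and Hspa5 at 0.26 ± 0.34, and 5 of 15 chaperone estimates were positive (median -0.06).

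In CKD mice, colonization was compared with vehicle, using the same CKD-vehicle libraries as above, so the comparisons are not independent. Again 0 of 39 members passed adjustment in edgeR, against 0.033% of all genes. At an unadjusted p below 0.05, 12 members passed, against 13.1% of all genes. Of these, 9 were lower and 3 higher, against 6.2% and 6.89% of all genes. DESeq2 called 1 member, Hsp90b1. Of the 9 lower members, 8 were chaperones. All 15 chaperones had negative estimates (median -0.46 on the log2 scale, against 0.03 over all genes), while 8 of 11 ATF4 targets had positive estimates (median 0.23).

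Hsp90b1 lies on chromosome 10 (GRCm38, 86690209 to 86705509, minus strand) and overlaps the annotated genes Gm15344, Gm25745 and, on the other strand, 1810014B01Rik. How reads shared with these genes were counted is not stated, so its counts are uncertain to that extent. It ran from 113 to 165 CPM in CKD-vehicle (median 152) and from 76.6 to 128 CPM in CKD-Oxf (median 89.9). All 7 CKD-Oxf libraries lay below the CKD-vehicle median, but the ranges overlapped because of the lowest CKD-vehicle library, mouse 919. The log2 difference was -0.58 ± 0.16 (edgeR adjusted p = 0.196).

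Hspa5 (chromosome 2, 34771970 to 34777547, plus strand) ran from 90.5 to 289.9 CPM in CKD-Oxf (median 123). The highest of these libraries was mouse 934, and the remaining 6 lay below the CKD-vehicle median of 267. The log2 difference was -0.80 ± 0.29 (edgeR adjusted p = 0.276). Calr lay on the same side, with 96.2 to 148 CPM in CKD-vehicle (median 128) and 51.9 to 131 CPM in CKD-Oxf (median 80.4), a difference of -0.60 ± 0.20 that did not pass (edgeR adjusted p = 0.237). Canx, the membrane-bound partner of calreticulin, differed by -0.48 ± 0.17 (edgeR adjusted p = 0.27).

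Sesn2 and Eif2ak3 lay on the opposite side. Sesn2 ran from 3.35 to 5.33 CPM in CKD-Oxf (median 4.11), and all 7 libraries exceeded the CKD-vehicle median of 2.82. The log2 difference was 0.61 ± 0.20 (edgeR adjusted p = 0.237). Eif2ak3, the PERK gene, differed by 0.28 ± 0.11 (edgeR adjusted p = 0.31), with medians of 13.2 CPM in CKD-vehicle and 16.0 CPM in CKD-Oxf.

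The CKD comparison turned on a single library. Without mouse 934, 7 members passed, all of them lower chaperones or folding enzymes: Calr, Canx, Hsp90b1, Hspa5, P4hb, Pdia3 and Pdia6. In that fit 3.83% of all genes passed, and Hspa5 differed by -1.04 ± 0.27 (edgeR adjusted p = 0.038). Without both mouse 934 and mouse 921, 11 members passed, 9 lower and 2 higher, against 8.86% of all genes. The 2 higher were Ern1 and Sesn2.

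**Figure D2:**
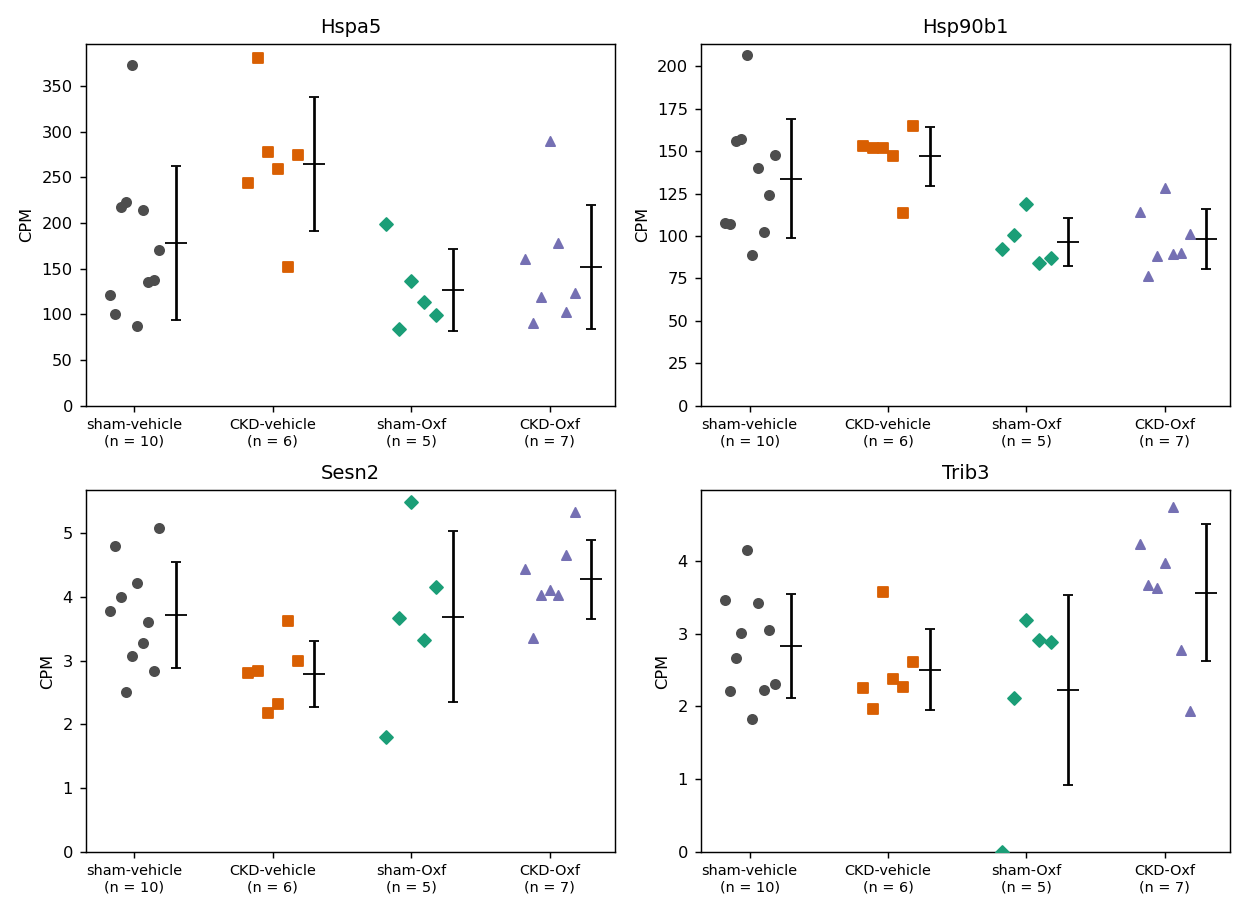
CPM of Hspa5, Hsp90b1, Sesn2 and Trib3 by group, with a point for each library in order of mouse number and the mean ± SD beside the points. All 12 Oxf libraries lie below the median of the 16 vehicle libraries for Hsp90b1, and the Trib3 point at 0 is mouse 921.

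In sham-operated mice, colonization against vehicle gave 0 members past the adjusted threshold, as for all genes (0%). At an unadjusted p below 0.05, 3 members passed, Hsp90b1, Pdia3 and Dnajb9, against 12.6% of all genes. DESeq2 gave 0 as well. Hsp90b1 held 83.8, 86.8, 92.0, 100.4 and 119 CPM in the 5 sham-Oxf libraries, all below the sham-vehicle median of 132. The difference was -0.47 ± 0.16 on the log2 scale (edgeR adjusted p = 0.232). Pdia3 differed by -0.53 ± 0.21 (0.297), Dnajb9, a BiP cofactor that represses IRE1, by -0.61 ± 0.25 (0.311), Canx by -0.34 ± 0.17 (0.415), Pdia6 by -0.40 ± 0.20 (0.417) and P4hb by -0.43 ± 0.23 (0.443), with edgeR adjusted p-values in parentheses. As in CKD mice, 15 of 15 chaperone estimates were negative, with a median of -0.35.

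The ATF4 targets of sham-Oxf mice rested on mouse 921. With it, 10 of 11 had negative estimates (median -0.25), and none passed. Ddit3, the CHOP gene, overlaps another annotated gene record of the same name on its own strand, and Mars and Gm4189 on the other strand. It held 1.61 CPM in mouse 921 and 8.70, 9.13, 9.79 and 10.5 CPM in the other 4 libraries. Those 4 values lay inside the sham-vehicle range of 7.41 to 14.6 CPM. The Ddit3 difference was -0.34 ± 0.25 with mouse 921 (edgeR adjusted p = 0.59) and -0.09 ± 0.17 without it (0.865). Without this library 8 of 11 ATF4 targets had negative estimates (median -0.04), and the chaperones had 15 of 15 (median -0.45).

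Between the colonized groups, CKD-Oxf against sham-Oxf, 0 members passed, as for all genes (0%), and 1 passed unadjusted (8.23% of all genes). DESeq2 gave 0. That member was Derl2, a channel component of ER-associated degradation, at -0.32 ± 0.16 (edgeR adjusted p = 0.604). Ppp1r15a, the inducible eIF2 phosphatase subunit known as GADD34, followed at 0.26 ± 0.14, Ddit3 at 0.45 ± 0.26, Dnajb11 at 0.28 ± 0.17, Trib3 at 0.67 ± 0.42 and Ddit4 at 0.66 ± 0.44 on the log2 scale. None passed. Without mouse 921, Derl2 was at -0.07 ± 0.13, Ddit3 at 0.19 ± 0.18 and Trib3 at 0.36 ± 0.23, and the median of the ATF4 targets went from 0.26 to 0.05.

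The interaction asks whether the effect of Oxf differed between CKD and sham mice. No member passed (0% of all genes), and Sesn2 was the only member below 0.05 unadjusted, against 3.55% of all genes. DESeq2 gave 0. Its interaction was 0.62 ± 0.29 (edgeR adjusted p = 1.0). All 11 ATF4 targets tested had positive estimates (median 0.34, against 0.07 over all genes), led after Sesn2 by Ddit3 (0.68 ± 0.35), Ppp1r15a (0.34 ± 0.19), Trib3 (0.84 ± 0.55) and Asns (0.77 ± 0.61), the asparagine synthetase. The smallest p outside the ATF4 targets was that of Derl2 (-0.26 ± 0.21). The chaperones were split, with 6 positive and 9 negative estimates. These values rested in part on mouse 921: without it 9 of 11 ATF4 targets were positive with a median of 0.15, Ddit3 was at 0.43 ± 0.24, Trib3 at 0.54 ± 0.29, Asns at 0.46 ± 0.41 and Derl2 at -0.01 ± 0.16.

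Averaged over both gavages, surgery changed 0 members (0% of all genes), and 0 passed unadjusted, where 10.6% of all genes did. DESeq2 gave 0. Hspa5 had the smallest p, with 0.42 ± 0.21 (edgeR adjusted p = 0.474). Ppp1r15b (-0.16 ± 0.08), Atf6 (0.17 ± 0.09), Derl2 (-0.19 ± 0.11), Dnajb11 (0.20 ± 0.11) and P4hb (0.29 ± 0.16) came next and did not pass.

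Averaged over both surgeries, 1 member, Hsp90b1, was lower with Oxf, against 1.54% of all genes lower and 2.81% in either direction. Its level ran from 76.6 to 128 CPM in CKD-Oxf and from 83.8 to 119 CPM in sham-Oxf, and all 12 Oxf libraries lay below the median of the 16 vehicle libraries. The groups overlapped, since the lowest vehicle library held 88.6 CPM. The log2 difference was -0.53 ± 0.11 (SE), a ratio of 0.694 (edgeR adjusted p = 0.0193). DESeq2 called 8 members, all lower, against 8.79% of all genes, and edgeR with a filter of at least 10 counts in every library called 7 of 32, against 10.1%.

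The members next in order did not pass and were all folding genes: Pdia3 (-0.49 ± 0.15, edgeR adjusted p = 0.058), Canx (-0.41 ± 0.12, 0.0601), Calr (-0.47 ± 0.14, 0.0623), Dnajb9 (-0.55 ± 0.17, 0.0688) and Hspa5 (-0.65 ± 0.21, 0.0725). Unadjusted, 15 members were below 0.05, 13 of them lower, against 23% of all genes in either direction and 11.5% lower. The chaperones had 15 of 15 negative estimates with a median of -0.41, against 0.0031 over all genes. The ATF4 targets were divided, 5 positive and 6 negative, with a median of -0.0022. Xbp1, the transcription factor upstream of many of these genes, differed by -0.27 ± 0.10 (edgeR adjusted p = 0.115) and Atf4 by -0.07 ± 0.07 (0.623).

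How many members passed in this average depended on single libraries and on covariates. Without mouse 934, 11 members passed, all lower, against 13.9% of all genes: 10 chaperones and Derl1. Without mouse 919, the CKD-vehicle library with the lowest 7SL share, 7 passed, against 7.83% of all genes, and without mouse 906, the sham-vehicle library with the lowest 7SL share, 6 passed, against 4.82%. With the clock score as a covariate 0 passed, and Hsp90b1 differed by -0.43 ± 0.18 (edgeR adjusted p = 0.774). Its SE was 0.11 without a covariate, and the clock score itself differed between the Oxf and vehicle groups. With the log2 7SL share as a covariate 0 passed, and Hsp90b1 differed by -0.38 ± 0.11 (edgeR adjusted p = 0.115). The share of all genes passing with either covariate is not given here, so these counts are not particular to the members. Some other chaperones moved further with the clock covariate: Hspa5 was at -0.25 ± 0.33, Calr at -0.16 ± 0.22, Pdia3 at -0.18 ± 0.23 and Canx at -0.14 ± 0.19. Dnajb9 moved less than Hsp90b1, from -0.55 to -0.48 ± 0.30. With the 7SL covariate Hspa5 was at -0.22 ± 0.15. Of the 15 chaperone estimates, 11 stayed negative with the clock covariate (median -0.14) and 14 with the 7SL covariate (median -0.22).

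**Figure D3:**
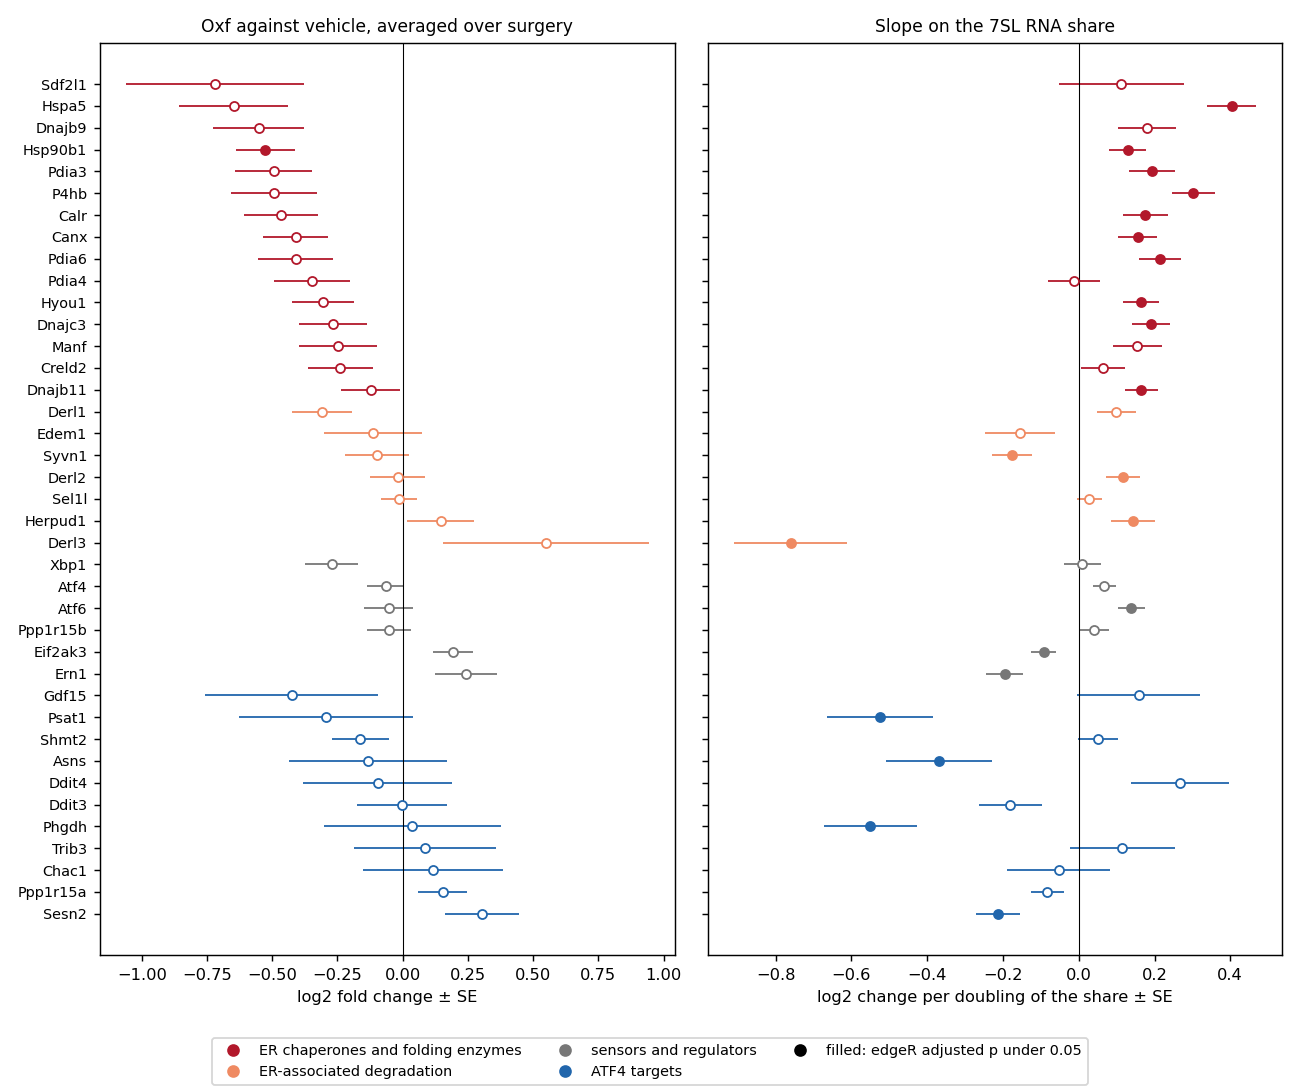
Left, log2 fold change ± SE of Oxf against vehicle, averaged over surgery, for the 39 tested members; right, log2 change ± SE per doubling of the 7SL RNA share with the group means in the fit; filled points have an edgeR adjusted p below 0.05. The chaperones lie left of 0 in the left panel and, except Pdia4, right of 0 in the right panel.

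Other genes of the pathway, from lists outside the 40 members, were counted for Oxf averaged over surgery in the same way, where 2.81% of all genes passed. Of 10 genes for eIF2, its exchange factor and its other kinases, 2 were lower and 0 higher: Eif2s1 (-0.65 ± 0.16, edgeR adjusted p = 0.0351) and Eif2s2 (-0.46 ± 0.13, 0.0466), the alpha and beta subunits of eIF2. Of 13 further degradation genes, Vimp was lower (-0.74 ± 0.20, edgeR adjusted p = 0.0444) and Os9, a lectin of the degradation complex, was higher (0.24 ± 0.06, 0.0362). Of 10 signal recognition particle proteins and receptors, Srp19 was lower (-0.51 ± 0.13, edgeR adjusted p = 0.04). None of 16 further folding genes, 27 further ATF4 targets or 7 tested membrane-bound factors passed.

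Some marker genes of cell types passed for Oxf averaged over surgery, where 2.81% of all genes passed and 1.54% were lower. Lower were 1 of 8 cardiomyocyte markers (Tnni3) and 1 of 5 fibroblast markers (Lum, -0.85 ± 0.23, edgeR adjusted p = 0.0435). Higher were 2 of 5 liver markers, Serpina1c and Alb. The mean log2 level of all 5 liver markers, relative to sham-vehicle, was lowest for CKD-vehicle mice (-2.06 ± 0.41, SD). For sham-Oxf mice it was -0.41 ± 1.54. For CKD-Oxf mice it was -0.07 ± 2.01, or -0.64 ± 1.45 without mouse 934. Median liver sums were low: 0.917 CPM (CKD-vehicle), 4.86 CPM (CKD-Oxf), 5.60 CPM (sham-vehicle) and 10.2 CPM (sham-Oxf). Summed fibroblast markers lay between 269 and 813 CPM in sham-vehicle and between 359 and 748 CPM in CKD-vehicle. In sham-Oxf they lay between 277 and 618 CPM, and in CKD-Oxf between 249.4 and 599.6 CPM. Of the clock genes, 7 of 10 in the first list were higher and 4 of 5 in the second lower. The part of these in the chaperone values was not tested beyond the covariate fits above.

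A list score is the mean over a list of log2 CPM minus each gene's sham-vehicle mean, given without a test. The chaperone score was 0 ± 0.39 in sham-vehicle (SD, n = 10), 0.20 ± 0.25 in CKD-vehicle (n = 6), -0.42 ± 0.26 in sham-Oxf (n = 5) and -0.27 ± 0.34 in CKD-Oxf (n = 7). Without mouse 934 the CKD-Oxf mean was -0.38 ± 0.18 (n = 6). The highest chaperone score of any library was 0.81, in sham-vehicle mouse 905, which also had the highest 7SL share of its group, 19.9%.

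The ATF4 score differed little between groups once mouse 921 was left out. It was 0 ± 0.18 in sham-vehicle, -0.12 ± 0.16 in CKD-vehicle and -0.02 ± 0.15 in CKD-Oxf (SD). In sham-Oxf the 5 values were -2.79, -0.19, -0.17, -0.01 and 0.26, with a mean of -0.58 ± 1.25, or -0.03 ± 0.21 without mouse 921 (n = 4). The score of sensors and regulators stayed between -0.14 and 0.20 in every library.

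**Figure D4:**
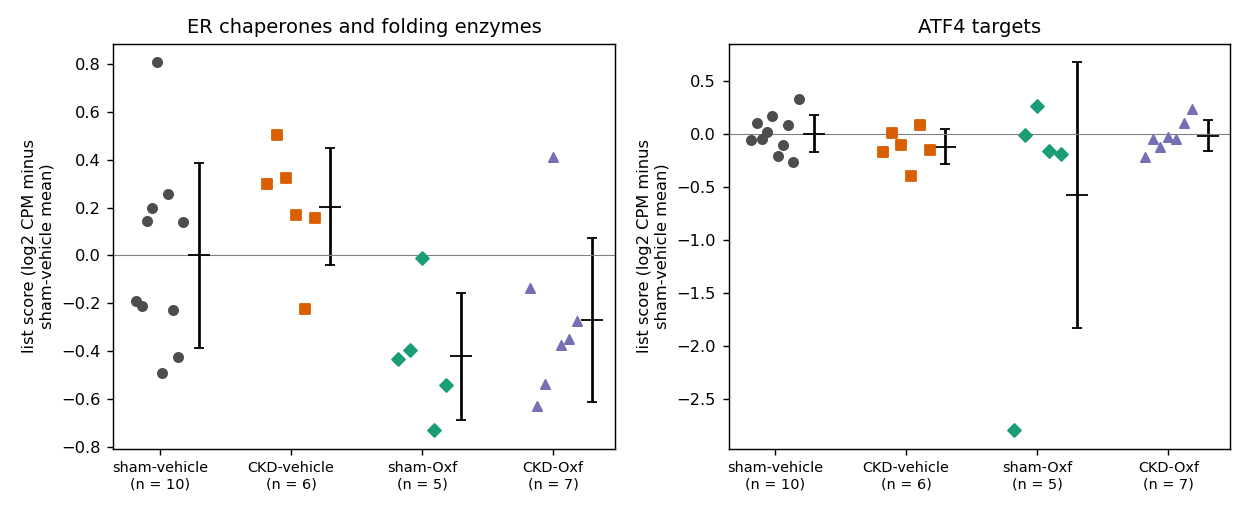
Chaperone score (left) and ATF4 target score (right) by group on the log2 scale, with a point for each library in order of mouse number and the mean ± SD beside the points. The chaperone scores of the Oxf groups lie mostly below 0, and the ATF4 scores lie near 0 apart from mouse 921 at -2.79.

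Within groups, correlations between genes were higher in the chaperone list than among ATF4 targets, given as a description. Over the 28 libraries with group means removed, the median correlation between 2 chaperones was 0.75, and all 105 pairs were positive (Pearson, across libraries that share depth and scaling). Among ATF4 targets it was 0.38 over 55 pairs, and without mouse 921 it was -0.08. Between chaperones and ATF4 targets it was -0.08 over 165 pairs, and without mouse 921 it was 0.03.

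The 7SL share was related to the members by a slope within groups, with the group means in the fit. Here 21 of 39 members passed, 13 higher and 8 lower, against 37.7% of all genes (16.7% higher and 21% lower), so a large part of the transcriptome moved with this share. The lists differed in direction. Of 15 chaperones 10 rose with the 7SL share and 0 fell, of 11 ATF4 targets 0 rose and 4 fell, of 7 degradation genes 2 rose and 2 fell, and of 6 sensors and regulators 1 rose and 2 fell. The median slope was 0.17 for chaperones and -0.08 for ATF4 targets, against -0.05 over all genes. With the 7SL counts left out before scaling, 16 members rose and 6 fell, against 36.3% of all genes in either direction.

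Hspa5 had the smallest p of all members, with a rise of 0.40 ± 0.07 on the log2 scale per doubling of the 7SL share (edgeR adjusted p = 4.33e-05). In CKD-vehicle, the library with the lowest share (mouse 919, 2.26%) had the lowest Hspa5 level, 152 CPM. In sham-vehicle, mouse 906 with the lowest share (2.30%) held 86.9 CPM and mouse 905 with the highest share (19.9%) held 373 CPM. P4hb rose by 0.30 ± 0.06 (edgeR adjusted p = 0.000192), Pdia6 by 0.22 ± 0.06 (0.00375), Dnajc3, a cochaperone that inhibits PERK, by 0.19 ± 0.05 (0.00443), Dnajb11, a BiP cofactor, by 0.16 ± 0.04 (0.00446) and Hyou1 by 0.17 ± 0.05 (0.0084). Pdia3, Canx, Calr and Hsp90b1 rose as well, the last by 0.13 ± 0.05 (edgeR adjusted p = 0.04). Pdia4, a further isomerase, had a slope of -0.01 ± 0.07.

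The 8 members that fell with the 7SL share were the ATF4 targets Phgdh, Psat1, Asns and Sesn2, the sensors Ern1 and Eif2ak3, and the degradation genes Derl3 and Syvn1. Derl3 had the steepest slope, -0.76 ± 0.15 (edgeR adjusted p = 0.000315). Phgdh and Psat1, successive enzymes of serine synthesis, had slopes of -0.55 ± 0.12 (edgeR adjusted p = 0.00113) and -0.52 ± 0.14 (0.00457). Ern1 fell by 0.20 ± 0.05 per doubling (edgeR adjusted p = 0.00277) and Sesn2 by 0.21 ± 0.06 (0.00509), while Atf6 rose by 0.14 ± 0.04 (0.00373). Of the others, Syvn1 encodes a ubiquitin ligase. Xbp1 (0.01 ± 0.05), Chac1, which degrades glutathione (-0.05 ± 0.14), and Trib3, a pseudokinase that restrains AKT (0.12 ± 0.14), had no slope beyond their errors.

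Markers of other cells moved with the 7SL share in the same libraries, where 16.7% of all genes rose and 21% fell. All 5 B and plasma cell markers (median slope -1.63) and all 4 adipocyte markers (-1.77) fell, while 4 of 4 red blood cell genes (1.04), 4 of 5 liver markers (0.95), 5 of 8 cardiomyocyte markers (0.28) and 3 of 4 endothelial markers (0.16) rose. Summed B and plasma cell markers lay between 5.05 and 217 CPM in sham-vehicle, between 4.74 and 132 CPM in CKD-vehicle, between 6.69 and 776 CPM in sham-Oxf and between 4.61 and 554 CPM in CKD-Oxf, with Jchain, Mzb1, Cd79a and Cd79b at 0 in some libraries. The part of these cells in the slopes was not tested.

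Related genes outside the 40 members showed both directions. Their counts stand against 16.7% of all genes that rose with the 7SL share and 21% that fell. Of 10 proteins of the signal recognition particle and its receptor 6 rose and 0 fell, among them Srp14 (0.29 ± 0.06, edgeR adjusted p = 0.000385), Srp9 (0.26 ± 0.06, 0.00105) and Srp54b (0.17 ± 0.04, 0.00152). Srp54a, Srp54b and Srp54c are near-identical copies, so their counts are uncertain. Of 10 eIF2 genes 5 rose and 0 fell, led by Eif2b5 (0.23 ± 0.04, 3.73e-05), Eif2b2 (0.15 ± 0.04, 0.01) and Eif2s2 (0.17 ± 0.05, 0.0113). Of 13 further degradation genes 6 rose and 2 fell, with Erlec1 (0.19 ± 0.03, 0.000121) and Vcp (0.24 ± 0.05, 0.000652) higher and Edem2 lower (-0.18 ± 0.04, 0.00178). Of 27 further ATF4 targets 6 rose and 1 fell: the tRNA synthetase genes Nars (0.15 ± 0.04, 0.00306) and Tars (0.13 ± 0.04, 0.0061) rose and the stress protein gene Nupr1 fell (-0.43 ± 0.12, 0.00786), all with edgeR adjusted p-values. Of 16 further folding genes 3 rose and 2 fell, with Sec61b of the translocon (0.39 ± 0.09, 0.000947), Ero1l (0.13 ± 0.03, 0.00278) and Ostc (0.23 ± 0.07, 0.014) higher, and of 7 membrane-bound factors Mbtps2, a protease that cleaves ATF6, rose (0.15 ± 0.04, 0.00141).

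Across all 28 libraries the chaperone score and the log2 7SL share had a Pearson r of 0.61 and a Spearman rho of 0.64. The libraries share a scaling to total counts, of which 7SL is a part, and no p is given for a score. Within groups r was 0.64 in sham-vehicle (n = 10), 0.90 in CKD-vehicle (n = 6) and 0.37 in CKD-Oxf (n = 7, rho 0.07). It was not computed for sham-Oxf (n = 5), where scores ran from -0.73 to -0.01. The sham-Oxf library with the highest share, mouse 921 (10.3%), had a score of -0.43. The CKD-Oxf value rested on mouse 934: over the other 6 libraries r was -0.37. In CKD-vehicle, mouse 919 lay apart with a share of 2.26% and a score of -0.22, whereas the other 5 had shares of 10.9% or more and scores of 0.15 to 0.50. With group means removed r was 0.48. Without the 2 libraries with the lowest and highest share, and with group means not removed, r was 0.57 (n = 26). The ATF4 score had an r of -0.18 over all libraries and -0.31 without mouse 921 (n = 27). The difference of both scores, chaperones minus ATF4 targets, had an r of 0.56 with the 7SL share, or 0.76 without mouse 921.

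**Figure D5:**
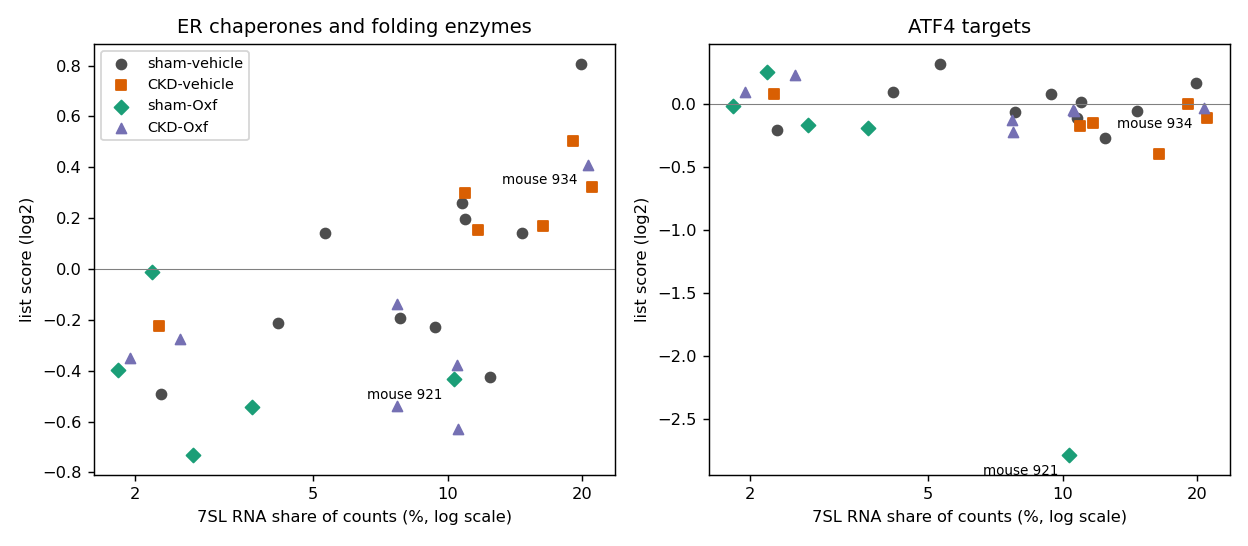
Chaperone score (left) and ATF4 target score (right) against the 7SL RNA share of counts (percent, log axis), with a point for each library, shaped and coloured by group. Libraries with shares near 20% have chaperone scores of 0.32 to 0.81, and mouse 921 lies apart at an ATF4 score of -2.79.

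The slope on the 7SL share also depended on the libraries used. Without mouse 934, 12 members passed, against 31.5% of all genes, and in sham-vehicle alone 5 passed, Ddit4, Hsp90b1, Hspa5 and P4hb higher and Derl3 lower, against 13.6% of all genes. Hspa5 kept a slope of 0.56 ± 0.12 in sham-vehicle alone (edgeR adjusted p = 0.019) and of 0.35 ± 0.07 without mouse 934 (0.000501).

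The clock score, tested in the same way, gave 0 members within groups, against 0.169% of all genes, and 5 unadjusted, against 11.2%. DESeq2 gave 0. The smallest p-values were those of P4hb (-0.25 ± 0.10, edgeR adjusted p = 0.428), Ddit3 (0.25 ± 0.10, 0.428), Pdia6 (-0.19 ± 0.09, 0.44), Hyou1 (-0.15 ± 0.07, 0.442), Dnajc3 (-0.17 ± 0.08, 0.446) and Manf, a secreted trophic factor of the ER (-0.19 ± 0.09, 0.447). All 15 chaperone slopes were negative (median -0.15), in contrast to the ATF4 targets, with 8 of 11 positive.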

How the data were processed

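The 40 genes and all gene lists were chosen with earlier results of these data known. The deposited file holds raw counts per gene, which the authors made from the reads. The submitters' processing notes name FastQC 0.11.7, MultiQC 1.9, STAR 2.6.1d, Subread featureCounts 1.6.3 and the build mm10. Annotation, strand use and the treatment of reads with several matches are not given in the sources used here. The near-identical rows Rn7s1 and Rn7s2 never differed by more than 0.0113% in a library, and the 7SL share is the share of counts in both rows. Positions and overlaps are from GENCODE M21 (GRCm38), matched by identifier for 45465 of 45513 rows. Counts of the 18 members that overlap another annotated gene, on the other strand (such as Pdia3) or the same one (such as Sesn2), are uncertain. Promoters are from RefSeq.

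Counts were scaled by TMM and tested with edgeR 4.0.16 in R 4.3.3 (robust quasi-likelihood fit, filterByExpr with a minimum count of 10, 4 group means over 28 libraries). Adjusted p-values are Benjamini-Hochberg values over the 24273 genes tested, with a threshold of 0.05. Slopes add log2 7SL share or clock score to the group means. CPM uses TMM-scaled library sizes, and scores use log2 CPM with a prior count of 2. Fits were tested on simulated data. Replicates are separate mice, and 0 pairs of libraries were identical. Library totals lay between 19798965 and 65378162 counts, and floors (3 counts) cover counting error only. The SE of a fit and the SD over libraries include the spread between mice.

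Named per comparison are the members past the threshold (at most 12), or the 6 with the smallest p where fewer than 6 passed, with 10 members always described by level and up to 3 passing genes per other list. Alternatives were DESeq2 1.42.0, its size factors, other filters, 7SL rows left out, covariates, the compared groups alone and each library left out. Added after seeing the data were leaving out mice 921 and 934 together, and the total count or the mitochondrial share as covariates of the 7SL slope.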

Additional observations from a re-analysis of the deposited data

Results flagged for a closer look

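In groups of 5 to 10 libraries, 172 sets of log2 levels or scores were searched for an outlying lowest or highest library. Its gap to its neighbour had to be large against the range of the group (Dixon's criterion). Chance marks about 1 in 20 sets, or 8.6 here, and 22 were found. The sets share libraries, and the scores share genes with the single levels, so they are not independent and the excess was not tested. The value given is the gap divided by the range.

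Sham-Oxf mouse 921 accounted for 11 of them. It was lowest for the ATF4 target score (0.852), Ddit3 (0.901), Trib3 (0.903), Chac1 (0.875), Asns (0.877), Psat1 (0.751), Shmt2 (0.762), Gdf15 (0.757) and Edem1 (0.824). It was highest for Atf6 (0.713) and Derl2 (0.775). This library had the lowest depth and the fewest genes with a count, and the part of these in its values was not tested.

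CKD-vehicle mouse 919, which had the lowest 7SL share of its group, was lowest for Hsp90b1 (0.695), Calr (0.631) and Sdf2l1 (0.687). CKD-Oxf mouse 934, with the highest 7SL share of its group, was lowest for Ern1 (0.665), Syvn1 (0.666) and Derl3 (0.69). Sham-vehicle mouse 905, also with the highest 7SL share of its group, was highest for Manf (0.47) and Atf4 (0.521). The part of the share in these values was not tested. The others were Atf6 in CKD-Oxf mouse 936 (lowest, 0.739), Chac1 in CKD-vehicle mouse 914 (highest, 0.684) and Psat1 in CKD-vehicle mouse 920 (lowest, 0.692).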

How the results depend on the processing

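Of 3061 values recomputed under other settings, 2221 were estimates of named members. Of these, 2150 kept their direction and side of the threshold, 54 newly passed, 16 no longer passed and 1 reversed. The others were counts, list scores and correlations, and 22 of them moved beyond a set margin. A change of sign inside that margin was not counted. The mean degradation score of sham-Oxf, for example, was -0.21 and reached 0.002 with 1 library left out. The reversal was P4hb in CKD-vehicle against sham-vehicle, -0.057 on the log2 scale with the clock score as a covariate. For CKD-Oxf against CKD-vehicle (0 members), DESeq2 gave 1, leaving out 1 library gave 0 to 7 (7 without mouse 934), and leaving out mice 921 and 934 gave 11. For Oxf averaged over surgery (1 member), DESeq2 gave 8, DESeq2 size factors in edgeR 2, at least 10 counts in every library 7, and the clock or 7SL covariate 0 each. Leaving out 1 library gave 1 to 11: 11 without mouse 934, 7 without 919, 6 without 906, 4 without 909 or 925, 3 without 921 and 2 without 902, and 14 without both 921 and 934. For the slope on the 7SL share (21 members), sham-vehicle alone gave 5, leaving out 1 library 12 to 24 (12 without mouse 934), and leaving out 921 and 934 gave 12. The clock slope gave 9 with no group term, all lower, and 0 with it. With medians over the list, the CKD-vehicle score of sensors and regulators was 0.076 and the correlation of the degradation score with the 7SL share was 0.28, against -0.36 with means. The cause of these changes was not tested, and the share of all genes passing is given above for only some of these settings. That share itself changed between settings, so counts without it do not show a change particular to the members. The other counts of members past the threshold were 0 under every setting run. No paired analysis was possible because replicates were numbered in record order, and the labels give each mouse its own number. Depth limits Fgf21, Gdf15 and Derl3, which had few counts.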
